A study of Mus musculus with 23 samples.

Results

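The 9 genes Pnma1, Pnma2, Pnma3, Tceal1, Tceal5, Tceal6, Tceal8, Bex1 and Bex2 belong to the PNMA, TCEAL and BEX families, and they were read from a count table of 39017 genes by their symbols. They were chosen by symbol with results of these data in view: Pnma3 and Tceal1 were selected on their CPM in these adult animals, which was low in all 3 mutants, so their levels at 10 weeks are given as a description with no test, and the question was whether the other 7, called relatives here, followed them. The samples are bulk total RNA, depleted of ribosomal RNA, of mouse cortex. At 10 weeks of age they came from 3 H3f3a G34R/+ animals, 3 H3f3a G34V/+ animals and 2 H3f3a G34W/+ animals, set against 6 H3f3a +/+ (WT) animals. At postnatal day 7 they came from 4 H3f3a G34R/+ animals, set against 4 WT animals. H3f3a encodes the replication-independent histone variant H3.3, and each mutant carries 1 altered allele, with glycine G34 replaced by arginine, valine or tryptophan, beside 1 normal allele. The labels name no promoter, Cre or cell type, nor the strain or the litters, so p-values measure the spread between these animals only.

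PNMA genes descend from the gag gene of a retroelement that was taken over by the host genome. They are named for the paraneoplastic Ma antigens, neuronal proteins against which some patients with cancer make antibodies, and PNMA2 can assemble into virus-like capsids. TCEAL and BEX genes are small, mostly X-linked genes with a shared origin in placental mammals. TCEAL proteins resemble the transcription elongation factor TFIIS, and BEX proteins are short adaptors that are abundant in brain. Bex1 has been tied to neurotrophin receptor signalling and to the exit from the cell cycle.

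Of the 9 genes, 7 lie on the X chromosome and only Pnma1 (chromosome 12) and Pnma2 (chromosome 14) are autosomal; in GENCODE M21 (GRCm38) all 9 are protein coding. Tceal6 (X:135208687-135210687), Bex2 (X:136066564-136068236), Tceal8 (X:136168984-136172342), Tceal5 (X:136200948-136203876) and Bex1 (X:136213972-136215513) lie on the minus strand, and Tceal1 (X:136707982-136711478) lies on the plus strand of the same neighbourhood. Pnma3 (X:73064787-73068191) lies far from them on the same chromosome, next to its relative Pnma5 (X:73033981-73037103).

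The start regions of 5 of the 6 X-linked TCEAL and BEX genes held the same pair of letter strings. The strings are TGACG and, 7 to 9 bases further on, CACGTGA, searched on both strands in RefSeq promoter windows (GRCm38.p6) of 250 bases before to 50 bases after each start. The pair was chosen after these windows had been read. They are shown here for Tceal1, Bex1, Tceal6 and Tceal8, which were low in several mutants, and for Tceal5, which did not pass a test. Tceal3 and Bex4, relatives outside the 9 genes, are shown as well. Capitals mark the 2 strings, each sequence runs 5′ to 3′ on the gene's own strand, and no other part of the window is shown.
Tceal1, X:136707963-136707992, plus strand: gctgTGACGcgctcccctCACGTGAccagg
Bex1, X:136215505-136215532, minus strand: cttcTGACGcaagtggCACGTGActagc
Tceal6, X:135210690-135210717, minus strand: agggTGACGctttgctCACGTGActggc
Tceal8, X:136172223-136172250, minus strand: ttgaTGACGcgatcctCACGTGAccagc
Tceal5, X:136203888-136203915, minus strand: ctggTGACGttcctgtCACGTGAtcagg
Tceal3, X:136666362-136666389, plus strand: cgggTGACGcggtgttCACGTGAccggc
Bex4, X:136138971-136138998, plus strand: cttcTGACGcaagtggCACGTGActagc
Bex1 and Bex4 had the same 28 letters. Among all 27025 genes with a window, 21 held the pair (0.0777%), while CACGTGA on its own was found in 4.29%. Bex3, Armcx1, Armcx4 and Armcx6 also held the pair. Of the 11 X-linked TCEAL and BEX genes with a window, 8 held the pair. Bex2, Tceal7 and Tceal9 did not, nor did Pnma1 and Pnma3, and Pnma2 had no window. Bex2 and Tceal7 were nevertheless called lower in G34R and G34V animals. Whether the pair has a part in these levels was not tested. A shared upstream sequence, the BGW motif, has been described for BEX, TCEAL and related genes; whether these letters are part of it was not tested.

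Total counts per animal were 35198575 to 78250476 in the G34R group, 39777831 to 49223317 in the G34V group, 32283004 to 41352024 in the G34W group and 36463706 to 90067111 in WT animals at 10 weeks. At day 7 they were 35106806 to 53520391 in G34R pups and 28414057 to 47127642 in WT pups. The least counted of the 9 genes, Pnma1, had at least 64 counts in every animal, and all 9 passed the filter on low counts in every comparison. WT replicate 3 had 2 libraries, which were summed. Library 1 had 42.05 CPM of Bex1 and 160.3 CPM of Bex2, and library 2 had 34.56 and 146.2 CPM. Their mitochondrial shares were 0.933% and 1.275%. Between these libraries of 1 animal, 41% of well-counted genes differed beyond counting noise. Mitochondrial protein-coding genes took 0.886% to 0.984% of counts in G34R libraries, 1.12% to 1.23% in G34V libraries and 1.33% to 1.36% in G34W libraries, against 0.933% to 1.35% in WT libraries at 10 weeks; their part in the results was not tested beyond the fits named below. All animals at 10 weeks were labelled male except G34W replicate 2, which was labelled female. Each day-7 group held males and females. H3f3a itself, whose alleles the table does not separate, averaged 43.1 ± 1.98 CPM in G34R (n = 3), 41.5 ± 1.86 in G34V (n = 3), 42.0 ± 5.11 in G34W (n = 2) and 45.2 ± 3.89 in WT animals (SD, n = 6) at 10 weeks.

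Levels are CPM, counts scaled for library size, on 1 TMM scale for all 22 animals. Divided by exon length, the WT levels at 10 weeks ran from Bex2 at 172 ± 6.51 CPM per kb (SD, n = 6), through Tceal6 at 42.2 ± 1.35, Bex1 at 30.2 ± 2.14, Tceal5 at 24.7 ± 1.97, Pnma2 at 13.3 ± 0.501, Tceal8 at 13.2 ± 0.797, Tceal1 at 8.15 ± 0.897 and Pnma3 at 3.89 ± 0.133, to Pnma1 at 1.99 ± 0.151 CPM per kb. The WT ranges of Bex1 and Tceal5 overlapped, as did those of Pnma2 and Tceal8; the other neighbours in this order did not overlap. In G34R animals the order differed at the low end: Pnma3 averaged 1.10 CPM per kb and Pnma1 1.82 CPM per kb, whereas in WT animals Pnma3 stood above Pnma1. Bex1 in G34R animals, at 18.3 CPM per kb, also stood below Tceal5, at 21.0 CPM per kb.

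Pnma3, one of the gag-derived genes, had 4.06, 3.17 and 4.05 CPM in the 3 G34R animals, 5.58, 3.55 and 5.22 CPM in the 3 G34V animals and 7.03 and 8.33 CPM in the 2 G34W animals. In the 6 WT animals its lowest value was 12.5, its median 13.3 and its highest 13.8 CPM. No mutant animal came near the WT range, which was narrow. The fitted log2 fold change against WT was -1.81 ± 0.13 (SE) in G34R, -1.47 ± 0.13 in G34V and -0.78 ± 0.15 in G34W animals, which is 71.5%, 63.9% and 41.8% lower.

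Tceal1, a nuclear regulator of transcription, had 7.19, 6.62 and 9.17 CPM in G34R animals, 7.81, 8.15 and 8.88 CPM in G34V animals and 12.4 and 10.9 CPM in G34W animals. In WT animals its lowest value was 19.5, its median 23.4 and its highest 25.7 CPM. Every mutant animal lay below every WT animal, and the G34W animals lay above all G34R and G34V animals. The log2 fold change was -1.58 ± 0.11 in G34R, -1.46 ± 0.11 in G34V and -0.98 ± 0.13 in G34W animals, or 66.6%, 63.8% and 49.1% lower. Between the substitutions, the log2 difference of Pnma3 was -1.03 for G34R against G34W, -0.69 for G34V against G34W and -0.34 for G34R against G34V. For Tceal1 it was -0.61, -0.49 and -0.12 in the same order. G34R and G34V animals overlapped for each gene. These values are a description without test or interval. No run of consecutive animal numbers holds animals of different substitutions, so they are also differences between runs. In bulk tissue, fewer cells that express a gene and less RNA per cell cannot be told apart, and this holds for every gene below.

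**Figure D1:**
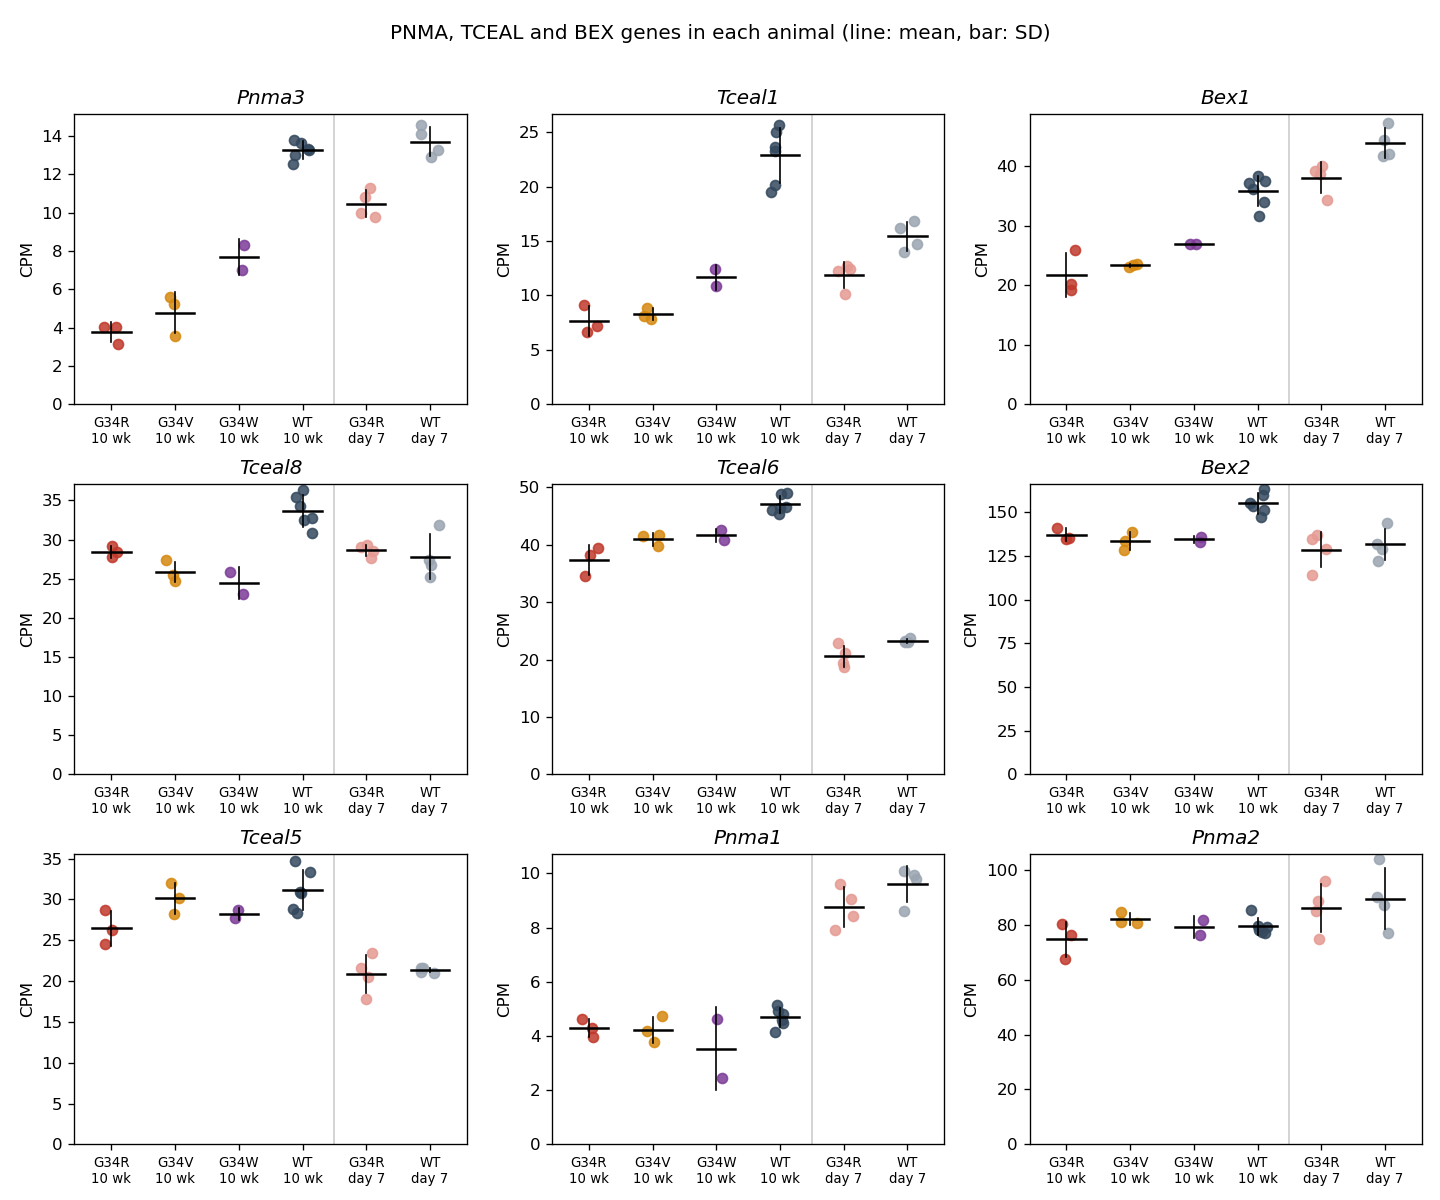
CPM (linear axis from 0) of the 9 genes in each of 22 animals, with 10-week groups left of the grey line and day-7 groups right of it; points are animals, horizontal lines means and vertical bars SD. Pnma3, Tceal1, Bex1, Tceal8, Tceal6 and Bex2 lie below the WT range in all 8 adult mutants, while Pnma2 overlaps in every group.

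Among the 7 relatives, Bex1 had the largest log2 difference from WT in G34R and G34V animals, and Tceal8 in G34W animals. Bex1, the neurotrophin-linked adaptor, had 19.2, 20.2 and 25.9 CPM in G34R animals, 23.2, 23.6 and 23.4 CPM in G34V animals and 26.9 and 26.9 CPM in G34W animals. The lowest WT value was 31.6, the median 36.7 and the highest 38.3 CPM. All 8 mutants lay below the WT range. By the quasi-likelihood test of edgeR, adjusted by Benjamini-Hochberg over 21274 genes, Bex1 fell by 0.72 ± 0.09 on the log2 scale in G34R (adjusted p = 2.99e-05), by 0.62 ± 0.09 in G34V (adjusted p = 0.000275) and by 0.41 ± 0.10 in G34W animals (adjusted p = 0.0451). These are 39.5%, 34.7% and 24.8% lower. Of the 50-base stretches of Bex1, 30.9% recur in other genes, Bex4, Tceal7 and Bex2 among them. The G34R and G34V calls held when any 1 animal was left out, but with WT libraries of low mitochondrial share alone the G34R difference was -0.77 with an adjusted p of 0.0965 (2 WT libraries). The G34W call was lost without either G34W animal, any 1 of the 3 G34V animals, G34R replicate 2, or WT replicate 1, 3, 5 or 6 (adjusted p up to 0.195), and with sex as a covariate (adjusted p = 0.104).

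Tceal8, a further TCEAL gene of the X-linked neighbourhood, fell in all 3 substitutions. It had 29.2, 28.4 and 27.7 CPM in G34R animals, 25.5, 24.8 and 27.3 CPM in G34V animals and 25.9 and 23.0 CPM in G34W animals, against a lowest value of 30.8, a median of 33.5 and a highest value of 36.4 CPM in WT animals. Its groups did not overlap with WT. Tceal8 fell by 0.25 ± 0.06 on the log2 scale in G34R (adjusted p = 0.0261, edgeR), by 0.38 ± 0.06 in G34V (adjusted p = 0.00154) and by 0.47 ± 0.08 in G34W animals (adjusted p = 0.00549). The G34V and G34W calls held without any 1 animal. The G34R call was lost without any 1 of the 3 G34R animals or WT replicate 3, 4 or 5 (adjusted p up to 0.162). With the block for runs of animal numbers the G34R and G34W calls were lost (adjusted p = 0.105 and 0.0589), as they were with scaling to pan-neuronal marker genes (adjusted p = 0.284 and 0.0502).

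Tceal6 had 34.5, 38.2 and 39.4 CPM in G34R animals, 41.4, 39.7 and 41.7 CPM in G34V animals and 40.9 and 42.5 CPM in G34W animals. The lowest WT value was 45.3, the median 46.5 and the highest 49.0 CPM. All mutants lay below all WT animals. It fell by 0.33 ± 0.05 on the log2 scale in G34R animals (adjusted p = 0.000736, edgeR), a call that held without any 1 animal, and by 0.20 ± 0.05 in G34V animals (adjusted p = 0.0446). The G34V call was lost without any 1 G34V animal, G34R replicate 2, or WT replicate 1, 2, 3, 5 or 6 (adjusted p up to 0.202). In G34W animals the log2 difference of -0.17 ± 0.06 missed the threshold (adjusted p = 0.174). As 45.3% of the 50-base stretches of Tceal6 also occur in Tceal3 or Tceal5, its reads can be split between them.

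Bex2, the most abundant of the 9, had 136, 135 and 141 CPM in G34R animals, 134, 128 and 138 CPM in G34V animals and 136 and 133 CPM in G34W animals. In WT animals the lowest value was 147, the median 154 and the highest 163.5 CPM. The groups did not overlap, though the distances were small. Library 2 of WT replicate 3 alone had 146.2 CPM, below the lowest WT animal. Of the 50-base stretches of Bex2, 22.2% recur in other genes, Bex3 and Bex1 among them. Bex2 fell by 0.18 ± 0.05 on the log2 scale in G34R (adjusted p = 0.0355, edgeR) and by 0.22 ± 0.05 in G34V animals (adjusted p = 0.0135). In G34W animals the difference of -0.20 ± 0.06 missed the threshold (adjusted p = 0.0743). With library 2 alone for WT replicate 3, the G34R call was lost. The G34R call was lost without any 1 G34R animal, G34V replicate 1 or 3, or WT replicate 1, 3, 4 or 6 (adjusted p up to 0.148), and the G34V call without G34V replicate 1 or 2 (adjusted p up to 0.104).

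Tceal5 had 24.5, 26.2 and 28.8 CPM in G34R animals, 32.0, 30.2 and 28.2 CPM in G34V animals and 27.7 and 28.7 CPM in G34W animals, against a lowest value of 28.3, a median of 30.8 and a highest value of 34.7 CPM in WT animals. Its groups overlapped with WT, and the log2 differences of -0.23, -0.04 and -0.14 did not pass the test (adjusted p = 0.0813, 0.849 and 0.428, edgeR).

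The 2 other PNMA genes, both autosomal, overlapped with WT in every mutant. Pnma1, whose product has been tied to neuronal cell death, had 4.63, 3.96 and 4.30 CPM in G34R animals, 3.79, 4.18 and 4.73 CPM in G34V animals and 2.44 and 4.62 CPM in G34W animals, against a WT median of 4.71 CPM within 4.16 to 5.16 CPM. The single value of 2.44 belonged to G34W replicate 1. Pnma1 overlaps Dnal1 on the opposite strand over 384 exonic bases, 16.3% of its exons, and the strand setting of the counting is not stated. The log2 differences were -0.12 (95% interval -0.47 to 0.22), -0.15 (-0.49 to 0.20) and -0.38 (-0.80 to 0.03), with adjusted p of 0.749, 0.729 and 0.299 in edgeR's test. With sex as a covariate, which leaves the male replicate 1 to set the G34W value, the G34W difference of Pnma1 was -0.94 (adjusted p = 0.0251). Pnma2, the capsid-forming member, had 76.2, 67.5 and 80.2 CPM in G34R animals, 84.7, 80.5 and 81.0 CPM in G34V animals and 76.4 and 81.9 CPM in G34W animals. Its WT median was 78.6 CPM within 77.2 to 85.2 CPM. The log2 differences were -0.09 (-0.22 to 0.04), 0.05 (-0.08 to 0.18) and 0.00 (-0.15 to 0.14), with adjusted p of 0.457, 0.765 and 0.988.

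**Figure D2:**
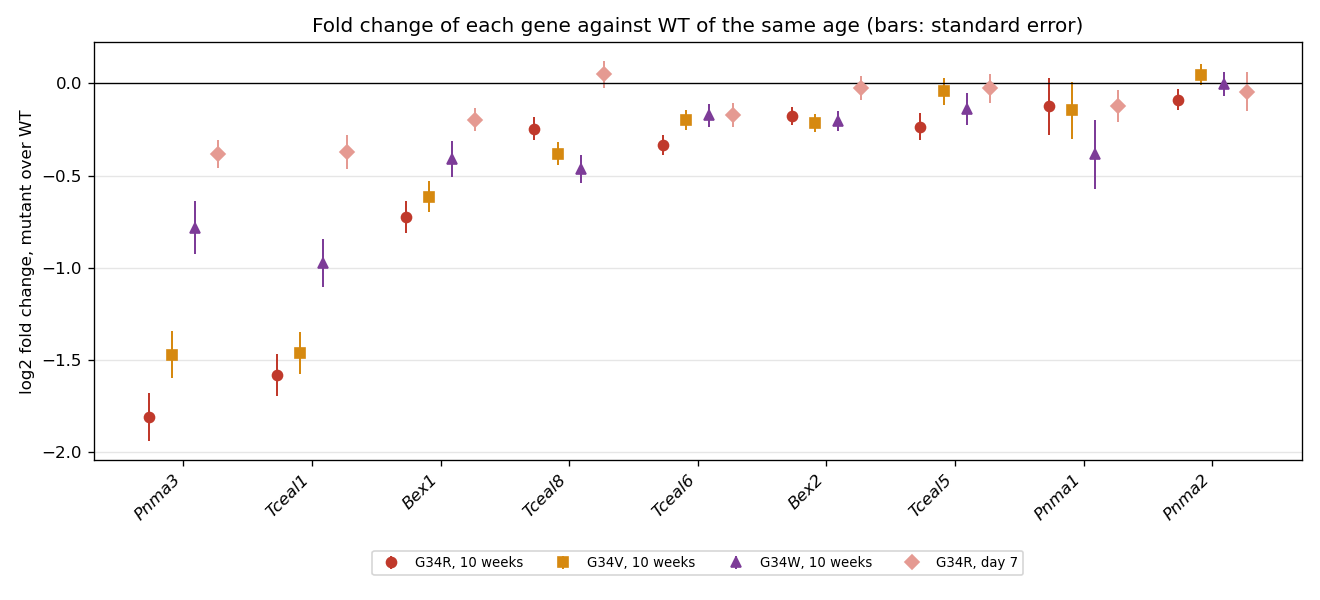
Log2 fold change of each gene, mutant over WT of the same age, for 3 substitutions at 10 weeks and for G34R at day 7; bars are standard errors. Pnma3 and Tceal1 reach -1.81 and -1.58 in G34R at 10 weeks, Bex1 follows at -0.72, and no value of Pnma1 or Pnma2 is lower than -0.38.

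Counted over the relatives, 4 of 7 fell in G34R animals, 4 of 7 in G34V animals and 2 of 7 in G34W animals, and none rose. Of all genes tested, 2.66%, 2.68% and 1.05% were called lower in the same comparisons. The median log2 difference of the 7 relatives was -0.23, -0.20 and -0.20, with that of all genes within 0.01 of 0. All animals of the mutant group lay below all WT animals for 4 of the 7 relatives in each of the 3 comparisons (Bex1, Tceal8, Tceal6 and Bex2), against 6.09%, 5.86% and 9.09% of all genes. The 3 comparisons share the WT animals. Bex1 and Tceal8 were called lower in each of the 3, as were 90 of all tested genes (0.423%). With a block for runs of consecutive animal numbers, 3 relatives were called in G34R (Bex1, Tceal6 and Bex2), 2 in G34V (Bex1 and Tceal8) and 0 in G34W animals. With counts scaled to pan-neuronal marker genes, which raises the median of all genes by 0.10 on the log2 scale in G34R animals, 2 relatives were called in G34R (Tceal6 and Bex1), 2 in G34V (Tceal8 and Bex1) and 0 in G34W animals; with that scaling, lower calls made up 18.1%, 49.8% and 46.7% of all calls in the 3 mutants, against 47.4%, 63.0% and 65.0% with TMM.

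The substitutions were also compared with each other. No run of consecutive animal numbers holds 2 substitutions, though each 10-week run holds WT animals, so these differences are also differences between runs. The mitochondrial share differed too, at most 0.984% in G34R libraries and at least 1.12% in G34V and 1.33% in G34W libraries. None of the 7 relatives was called between any 2 substitutions by edgeR or by DESeq2, against 0.23% of all genes for G34R against G34V, 1.88% for G34R against G34W and 0.15% for G34V against G34W. At an unadjusted p under 0.05, edgeR counted 2, 3 and 0 of the 7 relatives, against 10.9%, 18.2% and 11.7% of all genes. The widest difference was in Bex1 for G34R against G34W, at -0.31 (95% interval -0.56 to -0.07, adjusted p = 0.134); without G34R replicate 3, the highest of its group, it was -0.45 (adjusted p = 0.0363). Tceal8 ran the other way, at 0.22 (0.04 to 0.40, adjusted p = 0.167) for G34R against G34W. For the other relatives in this contrast, the intervals lay between -0.32 and 0.72.

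At day 7, 4 of the 9 genes were lower in every G34R animal than in every WT animal, against 2.92% of all genes, but none passed the test. Pnma3 had 10.8, 11.3, 9.96 and 9.77 CPM in G34R animals, against 13.3, 14.1, 14.6 and 12.9 CPM in WT animals, a log2 difference of -0.38 ± 0.08 (adjusted p = 0.0881, edgeR). Tceal1 had 12.4, 10.2, 12.7 and 12.3 CPM in G34R pups, against 14.7, 16.8, 16.2 and 13.97 CPM in WT pups, a difference of -0.37 ± 0.09 (adjusted p = 0.218, edgeR). Bex1 had 34.4, 38.8, 39.3 and 40.1 CPM in G34R pups, against 42.1, 47.3, 41.8 and 44.4 CPM in WT pups, a difference of -0.20 ± 0.06 (adjusted p = 0.368). Tceal6 had 21.2, 22.8, 18.7 and 19.5 CPM in G34R pups, against 23.2, 23.0, 23.0 and 23.8 CPM in WT pups, a difference of -0.17 ± 0.07 (adjusted p = 0.55). These are the 4 genes at an unadjusted p under 0.05, a level that 7.75% of all genes reached. The other 5 genes overlapped between groups, with differences between -0.12 (Pnma1) and 0.05 (Tceal8). Of all genes, 0.308% were called at day 7 by edgeR; Pnma3 was called by DESeq2 (adjusted p = 0.00567) and by edgeR with no filter on low counts (adjusted p = 0.0289). H3f3a was lower at day 7, at 60.7 ± 1.66 CPM in G34R pups and 72.5 ± 3.03 CPM in WT pups (SD, n = 4 each; adjusted p = 0.0428).

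The difference of the G34R effect between the ages was tested in 1 model of all 22 animals. Sex was not a covariate in this model, which also gave the WT age contrast below. The day-7 animals form 1 run of consecutive animal numbers that holds no adult, so age and run cannot be told apart. Bex1 was the relative called, with an effect 0.52 ± 0.11 lower on the log2 scale at 10 weeks than at day 7 (adjusted p = 0.0174, edgeR), against 0.602% of all genes called in that direction. Without G34R replicate 1 or 2 at 10 weeks the call was lost (adjusted p up to 0.0896), as it was with pan-neuronal scaling (adjusted p = 0.0955) and with Bex1 and Bex2 counted as 1 gene (adjusted p = 0.323). Tceal8 was next at -0.29 ± 0.09 (adjusted p = 0.186), and was called at -0.36 without WT replicate 2 of day 7 (adjusted p = 0.0352). For Pnma3 and Tceal1 the same difference was -1.42 and -1.20. These 2 values are a description without test or interval, since the levels at 10 weeks entered the choice of these genes. Pnma1 and Pnma2 showed differences of 0.01 (-0.38 to 0.40) and -0.03 (-0.26 to 0.19).

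In WT cortex the genes differed in how they changed with age. All 7 relatives passed the test between 10 weeks and day 7, when 34.4% of all genes were called lower and 33.3% higher, so that a call by itself says little here. Tceal6 rose most, with 47.0 ± 1.5 CPM at 10 weeks (SD, n = 6) and 23.2 ± 0.36 CPM at day 7 (n = 4), a log2 difference of 1.01 ± 0.05 (adjusted p = 2.95e-14, edgeR). Tceal5 (0.54), Tceal8 (0.27) and Bex2 (0.23) also rose. Pnma1 fell most, with 4.69 ± 0.36 CPM at 10 weeks and 9.61 ± 0.68 CPM at day 7, a log2 difference of -1.04 ± 0.12 (adjusted p = 2.19e-08, edgeR); Bex1 fell by 0.30 and Pnma2 by 0.18. The Pnma2 call was lost without G34R replicate 3 at 10 weeks, WT replicate 2 or 3 at day 7, or with sex as a covariate (adjusted p up to 0.205). Tceal1 averaged 22.9 ± 2.51 CPM in WT animals at 10 weeks and 15.4 ± 1.32 CPM at day 7, and Pnma3 13.3 ± 0.46 and 13.7 ± 0.76 CPM. In G34R animals Tceal1 averaged 7.66 ± 1.34 CPM at 10 weeks (n = 3) and 11.9 ± 1.15 CPM at day 7 (n = 4), and Pnma3 3.76 ± 0.51 and 10.5 ± 0.72 CPM. The WT level of Tceal1 was thus higher at the later age, and its G34R level lower.

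Further genes of these families were read from 4 lists, of which the table held 34 of 36 genes. Of 7 other PNMA genes, none was called in G34R, G34V or G34W animals by edgeR, with 1, 0 and 1 at an unadjusted p under 0.05, a level that 18.1%, 15.6% and 17.1% of all genes reached. Pnma5, the X-linked neighbour of Pnma3, had 0.486, 0.453 and 0.494 CPM in G34R animals, against 0.623 to 1.33 CPM in WT animals, a log2 difference of -0.94 ± 0.32 (adjusted p = 0.109). It shares 25.9% of its 50-base stretches with Pnma3. Pnma8a, Pnma8b, Moap1, Ccdc8, Zcchc12 and Zcchc18 showed G34R differences between -0.17 and 0.02. In G34W animals Zcchc12, at 73.4 and 54.4 CPM against 27.1 to 52.3 CPM in WT animals, lay above the WT range, with a log2 difference of 0.61 ± 0.20 that missed the threshold (adjusted p = 0.143, edgeR).

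Of 6 other TCEAL and BEX genes, 5 passed the filter on low counts, and Bex6 was at 0 counts in all animals. In G34R animals Tceal3 and Tceal7 fell, and in G34V animals Tceal3, Tceal7 and Bex4 fell. Of all genes, 2.66% and 2.68% were called lower in these 2 comparisons. None of the 5 was called in G34W animals by edgeR, with 2 at an unadjusted p under 0.05, against 17.1% of all genes. Tceal3 had 49.4, 49.3 and 49.3 CPM in G34R animals, 55.4, 53.0 and 54.8 CPM in G34V animals and 57.2 and 53.0 CPM in G34W animals, against 60.3 to 66.3 CPM in WT animals. Its log2 differences were -0.36 ± 0.05 (adjusted p = 0.000128), -0.22 ± 0.05 (adjusted p = 0.0133) and -0.20 ± 0.06 (adjusted p = 0.0845) in edgeR. Tceal7 had 2.39, 2.06 and 3.51 CPM in G34R animals, 2.05, 2.67 and 2.61 CPM in G34V animals and 3.02 and 2.46 CPM in G34W animals, against 4.37 to 4.65 CPM in WT animals. Its log2 differences were -0.76 ± 0.16 (adjusted p = 0.0065), -0.87 ± 0.16 (adjusted p = 0.00326) and -0.72 ± 0.19 (adjusted p = 0.0676). Tceal7 overlaps Bex1 on the opposite strand over 223 exonic bases, and whether the counting used strand is not stated in the sources, so reads of the 2 cannot be told apart there. Bex4 was 0.57 ± 0.11 lower in G34V animals (adjusted p = 0.00583), and 49.7% of its 50-base stretches recur in other genes, Bex1 among them. Bex3, which has the same pair of letter strings at its start, overlapped with WT in G34R and G34V animals (-0.02 and 0.04).

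Of 9 ARMCX and GPRASP genes, which are interleaved with the TCEAL and BEX genes on the X chromosome, Armcx3, a mitochondrial outer membrane protein gene, fell in G34R animals to 36.9, 39.8 and 40.1 CPM, against 47.8 to 52.9 CPM in WT animals (log2 difference -0.36 ± 0.06, adjusted p = 0.000653, edgeR). None was called in G34V or G34W animals, with 1 and 3 at an unadjusted p under 0.05, against 15.6% and 17.1% of all genes. Of 12 other genes derived from retroelement gag, 4 fell in G34R (Rtl1, Rtl8a, Rtl8b and Rtl8c), 4 in G34V (Rtl6, Rtl8a, Rtl8b and Ldoc1) and none in G34W animals, with 5 at an unadjusted p under 0.05, against the same 17.1% of all genes. Over all tested genes, 2.66%, 2.68% and 1.05% were called lower in G34R, G34V and G34W animals. Rtl1 in G34R animals, at 1.19 to 1.87 CPM, overlapped with WT animals, at 1.79 to 4.93 CPM (adjusted p = 0.0323, edgeR). Rtl8a had 39.5, 52.2 and 52.4 CPM in G34R animals, 52.0, 53.6 and 50.7 CPM in G34V animals and 61.9 and 61.4 CPM in G34W animals, against 67.3 to 86.7 CPM in WT animals. Its log2 differences were -0.67 ± 0.09 (adjusted p = 0.000101) in G34R and -0.54 ± 0.09 (adjusted p = 0.00116) in G34V animals. Rtl8b was 0.42 and 0.41 lower on the log2 scale in the same groups (adjusted p = 0.000132 and 0.000314), but 80.0% of its 50-base stretches recur elsewhere, mostly in Rtl8a. Ldoc1 was near the detection limit, at 0.415, 0 and 0.128 CPM in G34V animals against 0.432 to 1.59 CPM in WT animals. In none of the 4 lists was a gene called higher, and over all tested genes 2.95%, 1.57% and 0.564% were called higher.

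**Figure D3:**
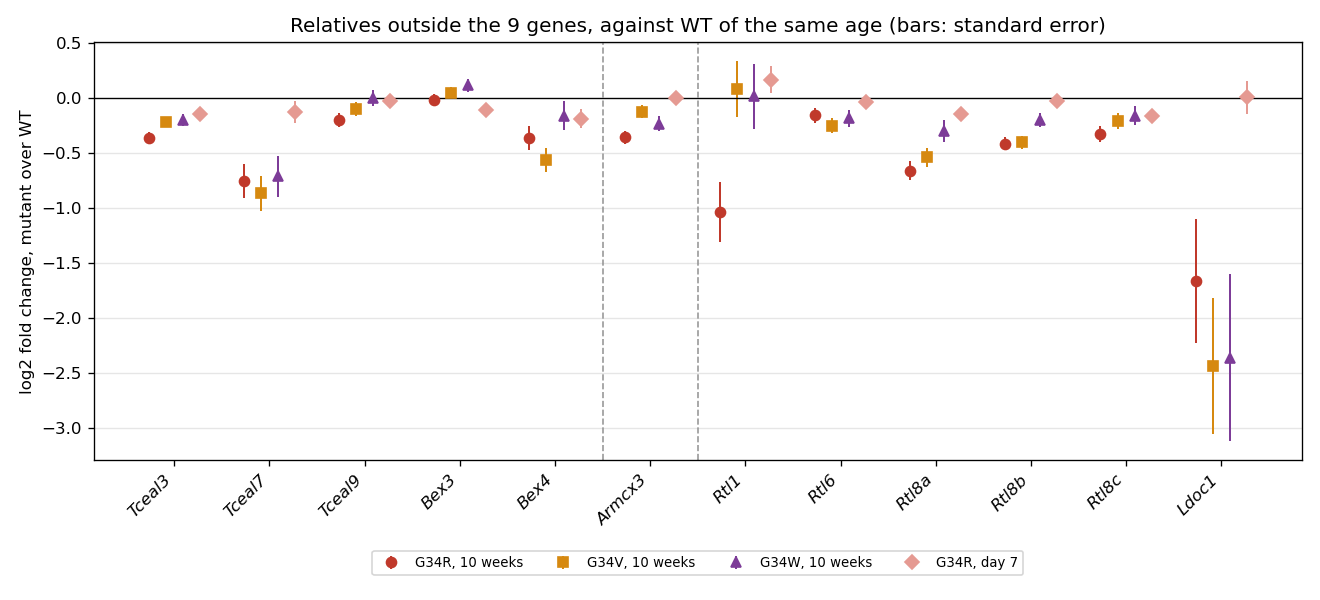
Log2 fold change, mutant over WT of the same age, of 5 further TCEAL and BEX genes (left of the first dashed line), Armcx3 (between the lines) and 6 gag-derived genes (right); bars are standard errors. All plotted genes except Bex3 and Rtl1 lie below 0 in all 3 substitutions at 10 weeks, though Tceal9 is near 0 in G34W. Rtl1 is low in G34R, where its values overlap with WT.

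Along the X chromosome, the TCEAL, BEX, ARMCX and GPRASP genes lie between Armcx4 and Zcchc18, a stretch of 2.31 Mb (X:134686519-136998472) that was delimited after the values had been seen. Leaving out Tceal1, which was chosen on its level, 7, 7 and 2 of its 20 tested family genes were lower in G34R, G34V and G34W animals, all of them named above. Of the 18 other tested genes in between, 0, 1 and 1 were lower, and 1, 0 and 2 higher. Only 11 of these 18 had a mean of at least 1 CPM in WT animals, whereas all family genes did. Calls were thus less likely among the other genes. As the ends of the stretch were set with these values known, the counts are a description. Bex3, between Bex1 and Tceal3, and Morf4l2, next to Tceal1, had G34R log2 differences of -0.02 ± 0.05 and -0.03 ± 0.06 (adjusted p = 0.887 and 0.848). Of all 967 tested X-linked genes, 4.76%, 4.14% and 1.03% were called lower in the 3 comparisons.

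**Figure D4:**
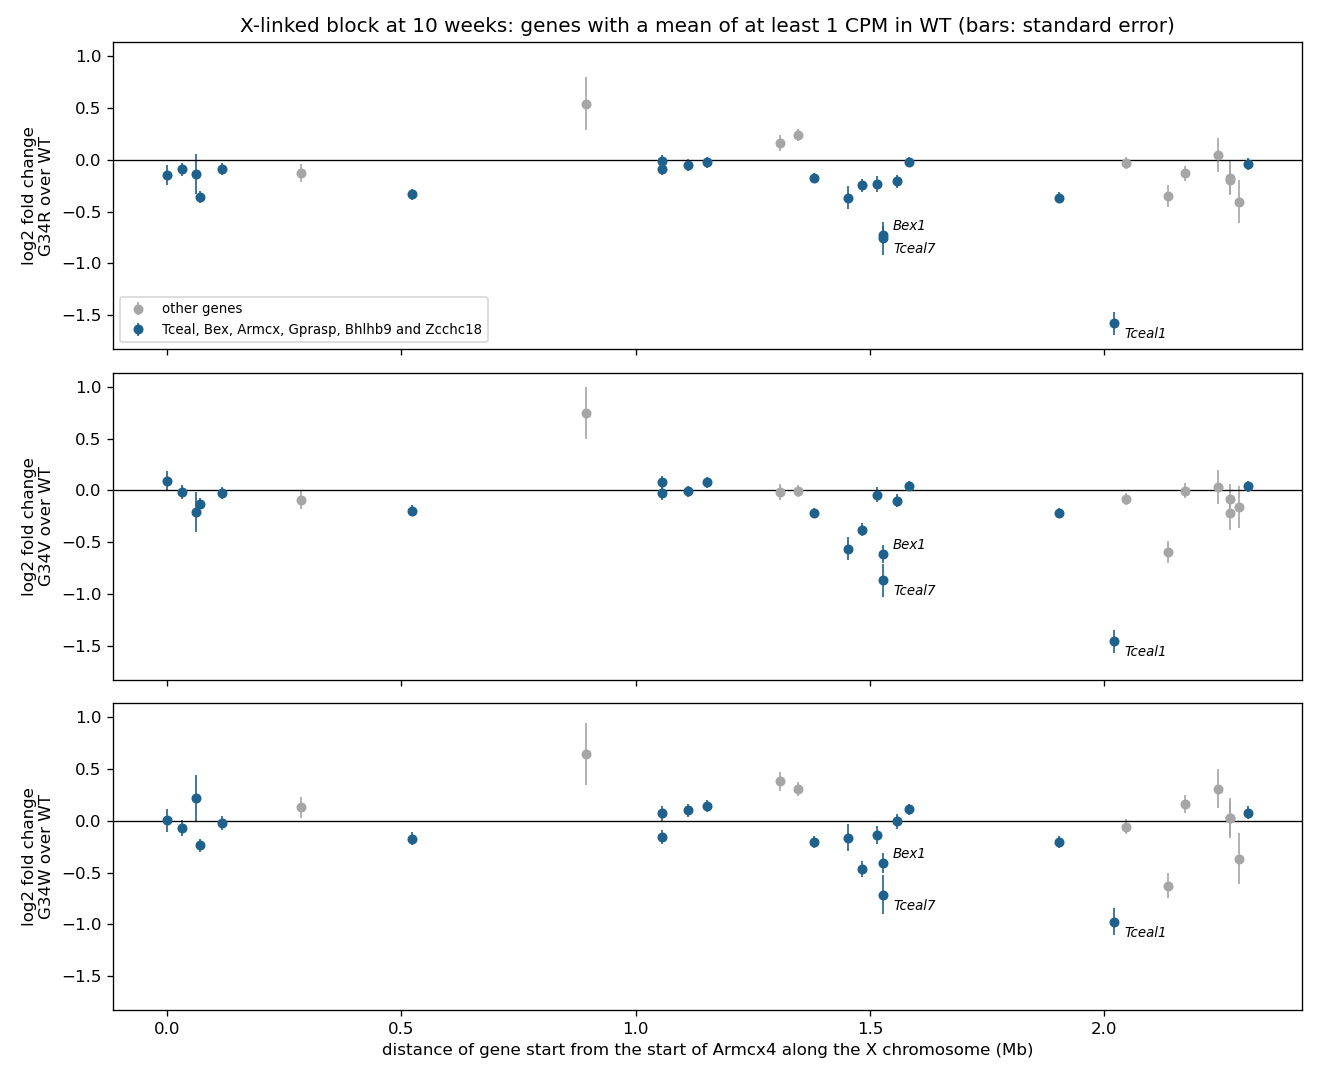
Log2 fold change of genes in the X-linked stretch at 10 weeks, by distance of the gene start from the start of Armcx4 (Mb), for G34R (top), G34V (middle) and G34W (bottom) over WT; blue points are 21 family genes, grey points 11 other genes with a mean of at least 1 CPM in WT animals, and bars standard errors. Tceal1 reaches -1.58, -1.46 and -0.98, whereas most points on both sides of it lie near 0.

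Over the 14 animals at 10 weeks, the genes whose log2 CPM followed Pnma3 most closely, among 16824 ranked genes, were A730017C20Rik (Pearson r = 0.973), Aldh2 (0.962), Hrasls (0.961), Slc37a1 (0.961) and Sh3bgrl2 (0.959). For Tceal1, 4 of the closest 5 were Mcts1 (0.976), Hrasls (0.976), Slc7a3 (0.97) and H1f0 (0.969). Hrasls stood in both groups of 5, with a mean of 4.45 CPM in G34R, 3.72 CPM in G34V, 7.95 CPM in G34W and 19.1 CPM in WT animals. Mcts1 and Slc7a3 are X-linked. These values describe a shared split between mutant and WT animals, and the animals share their groups and libraries.

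Markers of cell types and of structures near the cortex were read beside these genes. Pan-neuronal markers (14 genes) summed to 8511 to 8597 CPM in G34R, 8545 to 9228 CPM in G34V, 8371 to 9184 CPM in G34W and 8581 to 9908 CPM in WT animals at 10 weeks, and none of the 14 was called in any of the 3 comparisons. Excitatory neuron markers (6 genes) had 1, 0 and 1 called lower, and no inhibitory neuron marker (6 genes) was called. Microglial markers (8 genes) summed to 564.5 to 637.9 CPM in G34R, 419 to 521.9 CPM in G34V, 385.9 to 429.2 CPM in G34W and 349.6 to 386.6 CPM in WT animals, with 7, 4 and 0 of 8 called higher. Oligodendrocyte markers (8 genes) summed to 3152 to 4051, 2631 to 3437 and 2849 to 4326 CPM in the same mutants and 4202 to 5499 CPM in WT animals, with 0, 3 and 2 called lower. Astrocyte markers (8 genes) summed to 2110 to 2269 CPM in G34R, 1800 to 1949 CPM in G34V, 1780 to 2044 CPM in G34W and 1665 to 1857 CPM in WT animals, with 1 of 8 called higher in each comparison. Over all genes tested at 10 weeks, 2.95%, 1.57% and 0.564% were called higher and 2.66%, 2.68% and 1.05% lower in the 3 mutants. At day 7, microglial markers summed to 189.5 to 214.9 CPM in G34R pups and 154.5 to 173.8 CPM in WT pups, with 3 of 8 called higher. Of all genes, 0.112% were called higher at day 7. Thalamus markers (6 genes) had 1, 2 and 1 called lower at 10 weeks. None was called for choroid plexus, hippocampus, striatum or hypothalamus. Choroid plexus markers (6 genes) summed to 13.2 to 189.7 CPM in G34W and 144.7 to 908.1 CPM in WT animals at 10 weeks. Hypothalamus markers (8 genes) summed to 7.19 to 8.25 and 1.92 to 7.44 CPM in the same groups. The part of these cell types and structures in the levels of the 9 genes was not tested.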

How the data were processed

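The raw count per gene and library was deposited by the authors as 1 table of 23 libraries; per the submitters' processing notes, Trimmomatic 0.32, STAR 2.3.0e, featureCounts 1.4.4 and bedtools 2.27.1 were used with the mm10 build. No source used here states the gene annotation, the strand setting or how reads that map to several places were treated. The members and gene lists were chosen with earlier results of these data known.

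The 2 libraries of WT replicate 3 at 10 weeks were summed, giving 22 animals, and 175 sex-specific genes were left out of tests. edgeR 4.0.16 in R 4.3.3 gave TMM scaling, the filterByExpr filter and the robust quasi-likelihood test, with Benjamini-Hochberg adjustment over all tested genes (21274 at 10 weeks, 20451 at day 7 and 22417 over all animals) and a threshold of 0.05. The 10-week fit held all 14 adult animals, the day-7 fit alone had sex as a covariate, and the 22-animal fit gave the age contrasts. "Called", "rose" and "fell" mean past that threshold. Standard errors come from the F statistic, and intervals are 95%. Named genes are the 9 members, the listed families, H3f3a and the 5 genes most like Pnma3 and Tceal1 in log2 CPM (pseudocount 0.1, mean of at least 1 CPM); genes singled out in the X-linked stretch were chosen after their values were seen, and some named by these rules are not reported here. Exon lengths and positions are from GENCODE M21, promoter windows from RefSeq. Each fit was tested on simulated data. Alternatives were DESeq2 1.42.0, RLE scaling, no count filter, blocks, sex, pan-neuronal scaling, summed paralogs, single libraries and leaving out each animal.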

Additional observations from a re-analysis of the deposited data

Results flagged for a closer look

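By the interaction test over 22 animals, the effect of G34R against WT differed between 10 weeks and day 7 for 1 of 7 relatives. It also differed for 1 of 9 ARMCX and GPRASP genes, 2 of 12 other gag-derived genes and none of the other listed genes. Of all genes, 1.16% were called in either direction. Of the 50-base stretches of Rtl8b, 80.0% recur elsewhere, mostly in Rtl8a. The log2 difference between the ages was -0.52 for Bex1, -0.34 for Armcx3, -0.51 for Rtl8a and -0.38 for Rtl8b, with adjusted p of 0.0174, 0.028, 0.0174 and 0.00543 in edgeR's quasi-likelihood test. In each of the 4 genes the G34R difference from WT was larger at 10 weeks; the cause was not tested.

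Pnma2 in WT replicate 2 at 10 weeks, at 85.2 CPM, stood apart from the other 5 WT animals, the nearest of which had 79.6 CPM. It was the 1 such value in 27 groups of 4 to 6 animals examined over the 9 genes, and chance gives about 1 in 20 groups.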

How the results depend on the processing

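Pnma3 and Tceal1 stayed below WT at 10 weeks under every alternative run, with log2 differences between -1.87 and -0.68 for Pnma3 and between -1.72 and -0.88 for Tceal1 over the 3 substitutions. Results that moved are grouped here by setting; except where a value shows it, the cause was not tested.

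With DESeq2, genes called numbered 916 for G34W against WT, 281, 1118 and 309 for G34R against G34V, G34R against G34W and G34V against G34W, 211 at day 7 (1 member) and 461 for the age difference of the G34R effect. With no filter on low counts, 158 genes and 1 member were called at day 7. With a block for runs of consecutive animal numbers, 414 genes and 2 relatives were called in G34V, 70 genes and 0 relatives in G34W, and 4, 19 and 14 genes between the substitutions. With sex as a covariate, 630 genes were called in G34W and 309 for G34V against G34W. With pan-neuronal scaling, 2, 2 and 0 relatives were called in G34R, G34V and G34W, 0 relatives for the age difference, 197 genes in G34W and 19 for G34V against G34W; Pnma2 in G34R turned to 0.014, and lower calls made up 13.5% (24.5% with TMM), 26.5% (49.8%) and 28.9% (51.7%) of all calls for G34R against G34V, G34R against G34W and the age difference. With library sets split at the highest mitochondrial share of a G34R library as a block, 770 genes were called in G34R, 216 genes and 1 relative in G34W, and 6, 34 and 66 genes between the substitutions; with the high set alone, 161 genes in G34W. With the split at the widest gap, chosen after seeing the data, as a block, 2 relatives were called in G34V, 126 genes and 1 relative in G34W, and 11, 35 and 76 genes between the substitutions; with its high set alone, 519 genes and 2 relatives in G34V and 91 genes in G34W. With either library of WT replicate 3 alone, 1 relative was called in G34W.

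Uncalled differences that changed sign were Bex2 for G34R against G34V (-0.056, -0.051 and -0.065) and against G34W (-0.075, -0.061 and -0.075), and Tceal5 for G34R against G34W (0.14, 0.058 and 0.0896), under the 3 blocks in the order above. Counting Bex1 and Bex2 as 1 gene gave 0.017 for G34R against G34V and 0.12 for WT between the ages; that sum is led by the more abundant Bex2.

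Leaving out each animal in turn gave 693 to 1352 genes and 2 to 4 relatives called in G34R, 497 to 1014 genes and 2 to 4 relatives in G34V, 68 to 590 genes and 1 to 2 relatives in G34W, 13 to 129 genes for G34R against G34V, 118 to 628 genes and 0 to 1 relatives for G34R against G34W, 10 to 302 genes for G34V against G34W, 5 to 39 genes at day 7, and 133 to 281 genes and 0 to 2 relatives for the age difference. Pnma1 ranged from -0.10 to 0.82 for G34R against G34W and from -0.13 to 0.80 for G34V against G34W, the low ends without G34W replicate 1. The labels give the groups no shared replicate numbers, so no block by replicate number was fitted. With 2 G34W animals, differences as small as those of Tceal6 and Bex2 could pass or miss the threshold by 1 animal.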
